A study of Homo sapiens with 8 samples.

Results

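RNA sequencing was used to compare LX-2 cells, an immortalised human hepatic stellate cell line, after 4 days on a stiff or a soft hydrogel. The comparison took the 2 stiff libraries of day 4 against the 2 soft libraries of day 4, which are 4 of the 8 libraries of the series. All 8 libraries entered the fit, so the day 2 libraries share in the estimate of spread. Of 25369 genes in the count table, 14570 passed the filter on low counts and all of these are described. Both groups were LX-2 cells in DMEM with 10% foetal bovine serum on polyacrylamide gels coated with fibronectin, and the stiffness was 2 kPa for the soft gel and 40 kPa for the stiff gel. No drug, knockdown or other agent was applied, and the other 4 libraries were the same cells on the same gels at day 2. The labels number 2 replicates per condition, which the study describes as biological replicates. The p-values below rest on the spread between replicate libraries within the conditions of both days. LX-2 is 1 line carried in culture, without the hepatocytes, endothelium and macrophages that surround a stellate cell in the liver.

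Hepatic stellate cells lie between hepatocytes and the sinusoidal endothelium, store vitamin A when quiescent, and become collagen-producing, contractile myofibroblasts in injured liver. Substrate stiffness is sensed through integrins and actin tension, and reaches the nucleus through regulators such as YAP/TAZ, MRTF and SRF, and AP-1. Stellate cells also answer inflammatory stimuli: NF-kB drives chemokines and adhesion molecules, and interferons act through STAT and IRF factors on a large set of antiviral genes. The identity of the cells was checked on marker lists. Summed over 12 stellate cell and fibroblast markers the level was 6970 and 6390 CPM (counts scaled to library size, TMM-normalised) in soft 1 and soft 2, and 6230 and 8980 CPM in stiff 1 and stiff 2, although the identity genes LUM, DCN, PDGFRA, DES and LRAT were under the filter. The 8 hepatocyte markers summed to between 5.65 and 10.6 CPM with TTR, FGB, HNF4A and CYP3A4 at 0 counts, and the 6 endothelial markers summed to between 2.71 and 5.11 CPM with CLEC4G at 0 counts. The 8 leukocyte markers summed to between 106 and 127 CPM, with CD3E and MARCO at 0 counts, and the 6 cholangiocyte markers to between 52.2 and 73.3 CPM. The cholangiocyte sum was lower and the leukocyte sum, mostly CD68, higher in both stiff libraries than in both soft libraries, and the part of either in the results was not tested. The other 3 sums overlapped between soft and stiff. In bulk RNA, fewer cells expressing a gene and less of its RNA per cell cannot be told apart.

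The stiff libraries differed from each other far more than the soft libraries did. Total counts were 21429944 and 21939634 on soft, and 20738460 and 19955975 on stiff. Among 10036 genes whose log2 CPM averaged at least 3, the median absolute difference between libraries of a group was 0.426 (log2 CPM) for stiff and 0.173 for soft. In the stiff pair 925 of these genes (9.22%) differed by at least 2-fold, against 27 (0.269%) in the soft pair. The difference followed gene length. From genes under 1 kb to genes over 8 kb, the median of stiff 1 minus stiff 2 ran from -1.02 to 0.59, and that of soft 1 minus soft 2 from 0.34 to -0.28. Over the same genes Spearman's rho with length was 0.708 for stiff and -0.674 for soft, a correlation across genes of single library pairs. Stiff 2 stood apart from the others in several measures: genes under 1 kb took 10.8% of its counts (5.94 to 8.12% in the other 7 libraries of the series) and ribosomal protein genes took 8.16% (4.59 to 5.95%). Gene length therefore moved with library, and its part in the results was not tested beyond the alternatives given at the end. Both stiff values are given for each gene.

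**Figure D1:**
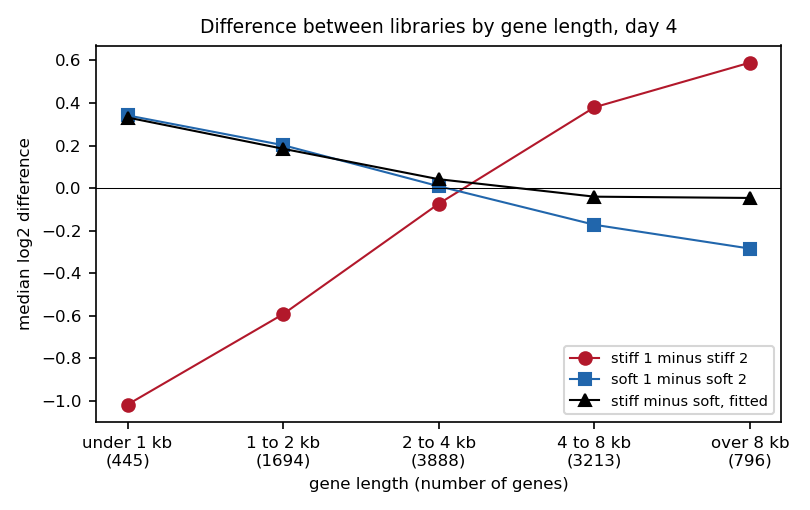
Median log2 difference between libraries (vertical axis) by gene length (horizontal axis, number of genes in parentheses) over 10036 genes at day 4. The line for stiff 1 minus stiff 2 climbs from -1.02 in genes under 1 kb to 0.59 in genes over 8 kb, the line for soft 1 minus soft 2 slopes the other way from 0.34 to -0.28, and the fitted stiff minus soft difference runs from 0.33 to -0.05.

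Of the 31 genes that fell on the stiff matrix, 22 were in lists of interferon-stimulated or inflammatory genes, among them OASL, IFIT1, IFIT2, IFIT3, CCL5, CXCL8 and VCAM1, each at least 2-fold lower in both stiff libraries. These lists held 157 of the 14570 genes tested and were written with earlier results of these data known. In edgeR's quasi-likelihood test, 31 genes fell (0.213% of the 14570 tested) and 5 rose (0.0343%) at a Benjamini-Hochberg adjusted p under 0.05. At an unadjusted p under 0.05, given here as a description, 629 genes were lower (4.32%) and 381 higher (2.61%). Both stiff libraries lay below both soft libraries for 2037 genes (14.0%) and above both for 1708 (11.7%). By at least 2-fold in each pairing of a stiff with a soft library, 103 genes were lower and 40 higher, and 42 of the 103 belonged to a list of interferon or inflammation genes. The share of these lists among the lower genes depended on the rule: it was 83 of 629 unadjusted, 51 of 126 with DESeq2, 76 of 271 without stiff 2 and 92 of 2196 without stiff 1. Stiff 1 and stiff 2 moved the same way for all 36 genes that passed the adjusted test, and none of the 36 overlapped between groups. Their median absolute difference between the stiff libraries was 0.21 (log2 CPM). With 2 libraries a group the test favours genes whose stiff libraries agree, so this agreement follows in part from how the 36 were chosen. The split of calls depended on scaling: with offsets for gene length it was 71 fallen and 29 risen, and unadjusted 740 lower and 993 higher. Fitted on the day 4 libraries alone, or without soft 1 or without soft 2, no gene passed the adjusted test (256, 450 and 374 lower and 153, 230 and 242 higher unadjusted), while 271 fell and 266 rose without stiff 2, and 2196 fell and 2490 rose without stiff 1. Without scaling factors the unadjusted split was 954 lower and 218 higher, and the median log2 fold change of all genes moved from 0.02 to -0.10.

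**Figure D2:**
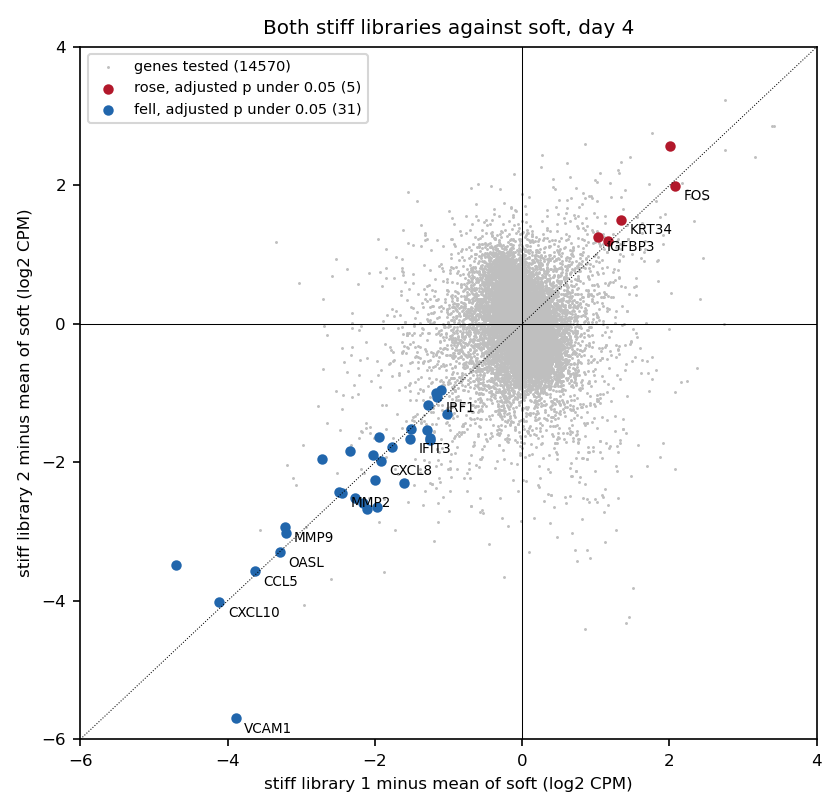
Difference of each stiff library from the mean of the soft libraries at day 4 (log2 CPM), stiff 1 on the horizontal and stiff 2 on the vertical axis, for 14570 genes (grey) with the 5 genes that rose in red and the 31 that fell in blue. The coloured points lie along the dotted line of equal change, with VCAM1 the farthest from it, while the grey cloud is spread across all 4 quadrants. The coloured genes were chosen by a test that favours genes whose stiff libraries agree.

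The OAS enzymes, which make 2′-5′-linked oligoadenylates that activate RNase L in infected cells, and the related OASL had all 4 members lower in both stiff libraries (against 14.0% of all genes). Of the 4, 3 fell (against 0.213%). OASL on chromosome 12 stood at 23.1 and 21.5 CPM in soft 1 and soft 2, and at 2.21 and 2.19 CPM in stiff 1 and stiff 2, and fell by 3.34 ± 0.23 (SE) on the log2 scale (adjusted p = 0.00882). The stiff libraries were almost equal to each other and far below both soft libraries. OAS1 was at 5.04 and 3.74 CPM against 0.393 and 0.461 CPM (log2 fold change -3.35 ± 0.33, adjusted p = 0.0151) and OAS2 at 9.75 and 12 CPM against 2.36 and 1.73 CPM (-2.40 ± 0.23, adjusted p = 0.015). The fourth gene, OAS3, did not pass the test, with 28.3 and 40.5 CPM on soft and 24.4 and 15.8 CPM on stiff, with no overlap but stiff 1 close to soft 1 (adjusted p = 0.46).

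IFIT proteins bind viral RNA and block its translation, and their genes lie side by side on chromosome 10. IFIT3 was measured at 64.7 and 72.9 CPM on soft and 23.9 and 21.7 CPM on stiff, a log2 fold change of -1.60 ± 0.14 (SE, adjusted p = 0.0106). For IFIT2 the values were 32.2 and 41 CPM against 8.35 and 5.64 CPM (-2.38 ± 0.24, adjusted p = 0.0151), and for IFIT1 62.5 and 61.6 CPM against 25.6 and 27.4 CPM (-1.23 ± 0.15, adjusted p = 0.0295). All 3 fell with no overlap, and IFIT2 had the widest gap between its stiff libraries. IFIT5 in the same cluster had 39.1 and 41.3 CPM on soft and 37.5 and 35.1 CPM on stiff, an adjusted p of 0.877. Exons of IFIT2 and IFIT3 overlap exons of LIPA on the opposite strand in the GENCODE annotation on GRCh37. OAS1, IRF1, CXCL5, MMP9 and BHLHE40 below also overlap opposite-strand exons, so that reads of the partner may be counted in them, and the strand setting of the counting is not given in the sources used here.

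Of 40 other interferon-stimulated effectors tested, 5 fell, 22 were lower (against 4.32% of all genes) and none higher at an unadjusted p under 0.05, ISG15, IFI6, IFI27 and IFITM3, named after their values were seen, were among the 18 past neither threshold, and the list's median log2 fold change was -0.78 against 0.02 over all genes tested. IFI44, an interferon-induced protein of uncertain function, stood at 22.4 and 19.97 CPM on soft and 3.68 and 3.86 CPM on stiff (-2.49 ± 0.21, adjusted p = 0.0106). Its neighbour IFI44L was down to 0 and 2 counts in stiff 1 and stiff 2 from 43 and 52 in soft 1 and soft 2, a ratio of soft over stiff of 41.1 with a 95% exact interval of 11.1 to 344 that covers counting error only. The 0 counts in stiff 1 allow a level of up to 0.147 CPM. APOL3, an apolipoprotein L family member (10.1 and 11.9 against 2.21 and 1.84 CPM, -2.44 ± 0.27), DDX60, a helicase linked to RNA sensing (10.6 and 12.9 against 2.85 and 2.36 CPM, -2.16 ± 0.24), and EPSTI1 (8.21 and 8.93 against 2.16 and 2.71 CPM, -1.82 ± 0.24) also fell, with adjusted p-values of 0.0198, 0.0199 and 0.0362. The myxovirus GTPase MX1 did not pass the test, although its libraries did not overlap: 6.07 and 7.57 CPM on soft and 1.82 and 2.3 CPM on stiff (adjusted p = 0.0921). Likewise PLSCR1, HERC6 and APOL6 had adjusted p-values of 0.0917, 0.0943 and 0.0664, with log2 fold changes of -0.84, -0.96 and -1.39.

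Upstream of these effectors, the transcription factor IRF1, which is induced by interferon and by TNF, fell from 39.5 and 37.5 CPM on soft to 17.2 and 18.4 CPM on stiff (-1.11 ± 0.15, adjusted p = 0.0362). IRF9, a DNA-binding subunit of the interferon-activated complex ISGF3, had 30.9 and 28.5 CPM against 15.2 and 13.9 CPM (adjusted p = 0.0775) and missed the threshold. Over the 16 interferon signalling factors tested, IRF1 was the single gene that fell (against 0.213% of all genes). Unadjusted, 4 were lower (against 4.32%), and the median log2 fold change was -0.28. The cytosolic sensors of viral RNA and DNA gave no gene past the adjusted test, yet 7 of 9 were lower unadjusted (against 4.32% of all genes). DDX58, which encodes RIG-I, was at 25 and 27.3 CPM on soft and 9.23 and 9.96 CPM on stiff (-1.45 ± 0.21, adjusted p = 0.0529), IFIH1, which encodes MDA5, at 4.48 and 5.73 against 1.18 and 0.749 CPM (adjusted p = 0.11), and DHX58 at 8.49 and 9.06 against 4.62 and 3.86 CPM (adjusted p = 0.11). IFNB1, which encodes interferon beta, had 0 counts in all 4 libraries, which allows up to 3 counts in each.

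Guanylate-binding proteins, GTPases that attack intracellular pathogens, had 4 of 5 members lower unadjusted (against 4.32% of all genes) and none past the adjusted test. GBP4 was at 12.3 and 17.4 CPM on soft and 4.37 and 1.79 CPM on stiff (adjusted p = 0.11). In the MHC class I and antigen processing list ERAP2, an aminopeptidase that trims peptides in the endoplasmic reticulum, fell from 72.2 and 68 CPM to 32.6 and 36.1 CPM (-1.03 ± 0.13, adjusted p = 0.0362). Over the 17 members tested the median log2 fold change was -0.35, with -0.234 without stiff 1 and -0.671 without stiff 2. In the fit of all libraries another 5 were lower unadjusted (against 4.32% of all genes). Among them were TAP1 (29.8 and 38.8 against 26.3 and 20.3 CPM) and B2M (1252 and 1091 against 732 and 978 CPM), with adjusted p-values of 0.493 and 0.636. Classical HLA genes are closely alike in sequence, so their single counts are uncertain.

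Chemokines, which draw neutrophils, monocytes and T cells into tissue, were lower throughout their list. Of 12 tested, 5 fell (against 0.213% of all genes) and 11 were lower unadjusted (against 4.32%). In all 12 both stiff libraries lay below both soft libraries (against 14.0%). CXCL8, the main human neutrophil attractant, had 261 and 242 CPM in soft 1 and soft 2 and 66.2 and 63.7 CPM in stiff 1 and stiff 2 (-1.95 ± 0.21, adjusted p = 0.0155). CCL5, a T cell and monocyte attractant, went from 30.7 and 25 CPM to 2.16 and 2.25 CPM (-3.66 ± 0.32, adjusted p = 0.0106). The values within each group of both genes were close, and the groups were wide apart. CXCL5 (17 and 16.9 against 7.07 and 5.36 CPM, -1.44 ± 0.19) and CXCL6 (7.51 and 6.4 against 0.982 and 1.73 CPM, -2.37 ± 0.30), ligands of the same receptors as CXCL8, fell with adjusted p-values of 0.0362 and 0.0331. The interferon-inducible CXCL10 had 55 and 44 counts on soft and 1 count in each stiff library, a ratio of 42.8 (95% exact interval 11.5 to 359, counting error only, adjusted p = 0.0331). CCL2, the monocyte attractant, was lower in both stiff libraries but differed between them, with 23.1 and 20.8 CPM on soft and 2.31 and 5.24 CPM on stiff (adjusted p = 0.1). CXCL1 was similar in pattern, with 115 and 89.8 CPM on soft and 28.3 and 44.9 CPM on stiff (adjusted p = 0.11). Another 6 chemokines of the list did not pass the filter on low counts.

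The stretches below were chosen because they hold, in the promoters of fallen genes, the letters recognised by the factors that the interferon and NF-kB responses use. RefSeq promoters (GRCh38.p14, here the 250 bases before the start) were matched by symbol for 11268 tested genes, 21 of the 31 fallen and all 5 risen. They were searched on both strands for an interferon-stimulated response element (GAAA, any 2 bases, GAAA), a kappaB motif (GGANTTTCC) and an AP-1 motif (TGANTCA). The response element was found in 8 of the 21 fallen genes and in 3.07% of all 27305 promoters, the kappaB motif in 4 and in 1.47%, and the AP-1 motif in 1 and in 6.6%. Among the promoters of tested genes the shares were 2.54%, 1.46% and 4.02%, beside 38.1%, 19.0% and 4.76% of the 21. None of the 3 was found in the 5 genes that rose, which at these shares are too few to compare. Capitals mark the matches, none of which overlap here, and each stretch was placed on GRCh37 by its exact match. CXCL8 holds an AP-1 match and then a kappaB match on chr4:74606134-74606218 (plus strand). CXCL10 holds a response element and then a kappaB match on chr4:76944803-76944886 (minus strand). IFIT3 on chr10:91087583-91087656 (plus strand, elements read on the other strand) and DDX60 on chr4:169239932-169240006 (minus strand) hold 2 response elements each. A match describes letters and is not evidence that a factor bound there.
CXCL8: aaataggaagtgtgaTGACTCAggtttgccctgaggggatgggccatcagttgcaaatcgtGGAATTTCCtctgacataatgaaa
CXCL10: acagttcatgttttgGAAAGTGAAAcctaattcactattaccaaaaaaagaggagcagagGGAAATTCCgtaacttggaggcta
IFIT3: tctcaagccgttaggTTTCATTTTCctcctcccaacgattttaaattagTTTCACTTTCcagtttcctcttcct
DDX60: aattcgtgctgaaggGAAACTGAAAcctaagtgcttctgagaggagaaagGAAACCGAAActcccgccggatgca

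**Figure D3:**
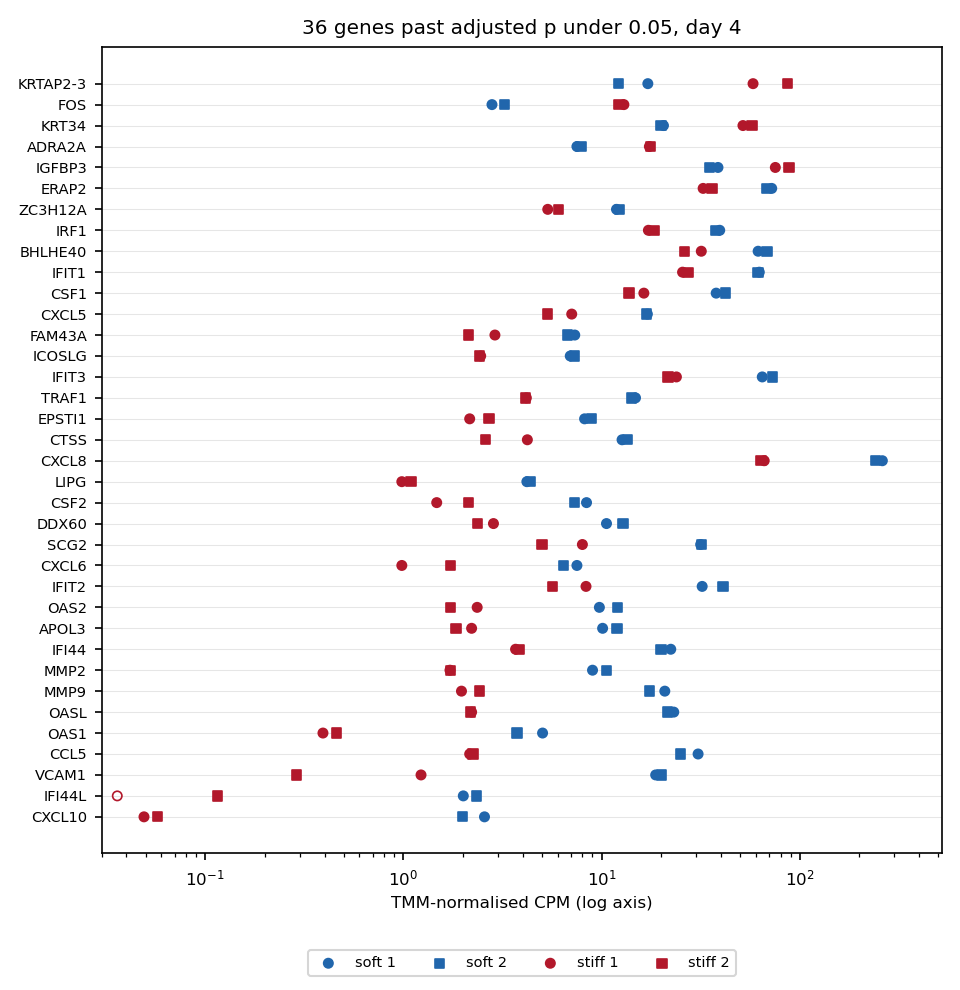
TMM-normalised CPM in each library (log axis) of the 36 genes past the adjusted test at day 4, ordered by fold change, with soft libraries in blue, stiff in red, library 1 as circles and library 2 as squares. The 5 genes at the top are higher and the other 31 lower in both stiff libraries, and the open circle at the left edge is IFI44L with 0 counts in stiff 1.

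Colony-stimulating factors fell too. CSF2, which encodes GM-CSF, had 8.4 and 7.3 CPM on soft and 1.47 and 2.13 CPM on stiff (-2.13 ± 0.27, adjusted p = 0.0331), and CSF1, the macrophage growth factor, 37.9 and 42.3 CPM against 16.4 and 13.8 CPM (-1.41 ± 0.20, adjusted p = 0.0418). The soft values were tight for both genes and did not meet the stiff values. CSF3 and IL6 were lower in both stiff libraries without passing the test: CSF3 had 1.96 and 1.89 CPM on soft and 0.147 and 0.346 CPM on stiff (adjusted p = 0.0945), and IL6 4.15 and 4.55 CPM against 2.01 and 2.19 CPM (adjusted p = 0.208). TNFSF10, the ligand TRAIL, had 20 and 25 counts on soft and 2 and 0 on stiff. In all, 8 of the 15 cytokines tested were lower unadjusted and 1 was higher (against 4.32% and 2.61% of all genes). The higher gene was IL11, named after its values were seen, at 42.5 and 37.7 CPM on soft and 45.5 and 71.7 CPM on stiff (adjusted p = 0.68).

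VCAM1, the endothelial and stromal ligand of the integrin VLA-4, had the largest gap between stiff libraries of the 36 genes. It stood at 18.8 and 20.1 CPM in the soft libraries and at 1.23 CPM in stiff 1 and 0.288 CPM in stiff 2 (-4.62 ± 0.48, adjusted p = 0.0153), that is, 25 and 5 counts against 402 and 445. ICAM1, the ligand of the leukocyte integrin LFA-1, had 54.7 and 56.4 CPM against 20.04 and 20.9 CPM, with stiff libraries close together, and missed the threshold (adjusted p = 0.0664). Of the 7 immune adhesion molecules tested, these 2 were lower unadjusted (against 4.32% of all genes) and the others passed neither threshold. The list's median log2 fold change was -0.12. Of the NF-kB subunits and feedback genes, TRAF1, an adaptor of TNF receptors, fell from 14.8 and 14.2 CPM to 4.17 and 4.15 CPM (-1.80 ± 0.21, adjusted p = 0.0261). BIRC3, NFKB2, TNFAIP2 and RELB were among the 7 of 18 that were lower unadjusted (against 4.32% of all genes). BIRC3 was at 63.3 and 81.4 CPM on soft and 28.5 and 18.3 CPM on stiff (adjusted p = 0.0775). Complement genes had 5 of 10 members lower unadjusted (against 4.32% of all genes) and none past the adjusted test. C3, the central component, was at 2.24 and 3.34 against 0.589 and 0.921 CPM (adjusted p = 0.131).

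Counted together, 157 genes of the 12 interferon and inflammation lists were tested. At an unadjusted p under 0.05, 83 were lower (52.9%, against 4.32% of all genes tested) and 1 was higher. Both stiff libraries lay below both soft libraries for 99 (63.1%, against 14.0%) and above for 3. These lists were written with earlier results of these data known, so the counts describe the genes and are not an independent test. Their per-list medians were below 0 in stiff 1 and in stiff 2 alike.

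Another 9 genes fell that are in none of these lists. The gelatinases MMP2 and MMP9, which degrade basement membrane and denatured collagen, were both lower. MMP2 had 9.01 and 10.6 CPM in soft 1 and soft 2 and 1.72 and 1.73 CPM in stiff 1 and stiff 2 (-2.50 ± 0.25, adjusted p = 0.0151), and MMP9 20.9 and 17.4 CPM against 1.96 and 2.42 CPM (-3.13 ± 0.32, adjusted p = 0.0151). Neither gene overlapped between groups, and stiff 1 and stiff 2 differed by little. SCG2, a secretory granule protein, fell from 31.6 and 31.8 CPM to 8 and 5.01 CPM (-2.28 ± 0.25, adjusted p = 0.0182), and the clock and stress repressor BHLHE40 from 61.7 and 68.4 CPM to 31.9 and 26.2 CPM (-1.16 ± 0.15, adjusted p = 0.0331). The other 5 were the endothelial lipase LIPG, the lysosomal protease CTSS, the T cell costimulator ICOSLG, FAM43A and ZC3H12A, an RNase that limits cytokine transcripts. LIPG had 4.2 and 4.37 CPM on soft against 0.982 and 1.09 CPM on stiff, CTSS 12.7 and 13.5 against 4.22 and 2.59 CPM, and ICOSLG 6.95 and 7.3 against 2.46 and 2.42 CPM. FAM43A had 7.33 and 6.72 against 2.9 and 2.13 CPM and ZC3H12A 11.9 and 12.4 against 5.35 and 6.05 CPM. All 5 were below the soft range in both stiff libraries, with log2 fold changes of -2.04, -1.93, -1.55, -1.47 and -1.09 and adjusted p-values between 0.0331 and 0.0437.

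The other proteases and their inhibitors did not pass the adjusted test. The membrane protease MMP14 had 78.2 and 79 CPM on soft and 63.2 and 57.8 CPM on stiff (adjusted p = 0.487), and the inhibitor TIMP3 191 and 203 CPM against 154 and 153 CPM (adjusted p = 0.485). MMP1, an interstitial collagenase, lay the other way at 18.8 and 16.9 CPM against 23.5 and 34.6 CPM (adjusted p = 0.46). TIMP4 was under the filter, with 1 count in stiff 2 and 0 in the other 3 libraries.

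Of the 5 genes that rose, FOS, an AP-1 subunit and immediate-early gene, had the smallest p-value. It was at 2.8 and 3.25 CPM in soft 1 and soft 2 and 13 and 12.3 CPM in stiff 1 and stiff 2 (2.06 ± 0.18, adjusted p = 0.0106). KRT34, a hair keratin, rose from 20.5 and 19.97 CPM to 51.7 and 57.5 CPM (1.43 ± 0.13, adjusted p = 0.0106). KRTAP2-3, a keratin-associated protein gene in a cluster of near-identical copies on chromosome 17, so that its reads may be shared between copies, had 17.1 and 12.2 CPM on soft and 58.1 and 86.6 CPM on stiff (2.30 ± 0.25, adjusted p = 0.0182). The stiff libraries of FOS and KRT34 were close together, while KRTAP2-3 was higher in stiff 2 than in stiff 1. ADRA2A, the alpha-2A adrenergic receptor, was at 7.51 and 7.89 CPM against 17.4 and 17.7 CPM (1.19 ± 0.16, adjusted p = 0.0362). IGFBP3, which binds insulin-like growth factors and is a target of YAP/TAZ and TGF-beta, was at 38.7 and 35.1 CPM against 75.3 and 88.3 CPM (1.15 ± 0.15, adjusted p = 0.0362). No library of these genes crossed from one group to the other.

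No other AP-1 gene passed the adjusted test. JUN had 296 and 305 CPM on soft and 379 and 333 CPM on stiff (adjusted p = 0.831), FOSL1 295 and 285 CPM against 314 and 324 CPM (adjusted p = 0.862), and JUNB 34.6 and 34.7 CPM against 23 and 29.4 CPM (adjusted p = 0.656). JUN and FOSL1 were slightly higher and JUNB lower in both stiff libraries, and none of these differences passed the test. FOSL2 split the stiff pair, with 69.2 and 109.56 CPM on soft, 142 CPM in stiff 1 and 51.1 CPM in stiff 2 (adjusted p = 0.969). ATF3 had 4.29 and 5 CPM against 3.78 and 3.34 CPM (adjusted p = 0.824). Over the 15 AP-1 genes tested, FOS rose, and the median log2 fold change was 0.14. At an unadjusted p under 0.05, FOS and MAFF were higher and JUNB lower (against 2.61% and 4.32% of all genes). Among other immediate-early and ERK feedback genes, EGR1 had 45.5 and 41.3 CPM against 87.3 and 87.4 CPM (1.01 ± 0.16, adjusted p = 0.0664) and the phosphatase DUSP1 107 and 104 CPM against 193 and 203 CPM (0.91 ± 0.15, adjusted p = 0.0775). Both had tight groups that did not overlap, and both missed the threshold.

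YAP/TAZ target genes, the usual transcriptional readout of a stiff substrate, had a list median above soft in stiff 1 and not in stiff 2. Both stiff libraries lay above both soft libraries for 10 members and below for 1 (against 11.7% and 14.0% of all genes). The list's median length was 5198 bases, which is long. Of 23 tested, IGFBP3 rose, 8 were higher and none lower unadjusted (against 2.61% and 4.32% of all genes), and the median log2 fold change was 0.15, with 0.39 in stiff 1 and -0.09 in stiff 2. Without stiff 1 the median was -0.08, and without stiff 2 it was 0.39. CTGF, a matricellular growth factor, had 228 and 217 CPM on soft and 410.49 and 409.59 CPM on stiff (0.88 ± 0.15, adjusted p = 0.0945). ANKRD1 had 188 and 181 CPM against 313 and 401 CPM (adjusted p = 0.14), CYR61 844 and 810.38 CPM against 1190 and 1372 CPM (adjusted p = 0.261), and F3, tissue factor, 326 and 303 CPM against 523 and 469 CPM (adjusted p = 0.224). Each of these 4 was higher in both stiff libraries than in both soft libraries and none passed the adjusted test.

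Among contractile and SRF target genes, none of 22 tested passed the adjusted test, and the median was 0.29. Unadjusted, 4 were higher and none lower (against 2.61% and 4.32% of all genes). DESeq2 called 2 higher. Members were also called when either stiff library was left out, as were many other genes. The list's median was 0.294 without stiff 1, 0.2 without stiff 2 and 0.315 without soft 2. TAGLN, which encodes the actin-binding protein SM22, had 479 and 402 CPM on soft, 563 CPM in stiff 1 and 948 CPM in stiff 2 (adjusted p = 0.475). The contractile genes CNN1 (16.3 and 13.7 against 21.8 and 28.2 CPM), SMTN (149.97 and 139 against 206 and 232 CPM) and ACTG2 (23.4 and 19.6 against 32.4 and 41.4 CPM) had adjusted p-values of 0.236, 0.234 and 0.567. ACTA2, which encodes alpha-smooth muscle actin, the customary marker of stellate cell activation, lay the other way. It was at 17.3 and 19.4 CPM on soft and 12.4 and 16.5 CPM on stiff (-0.34 ± 0.18, adjusted p = 0.813), with stiff 2 just below soft 1. ACTA2 has exons that overlap FAS and an antisense gene on the opposite strand.

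**Figure D4:**
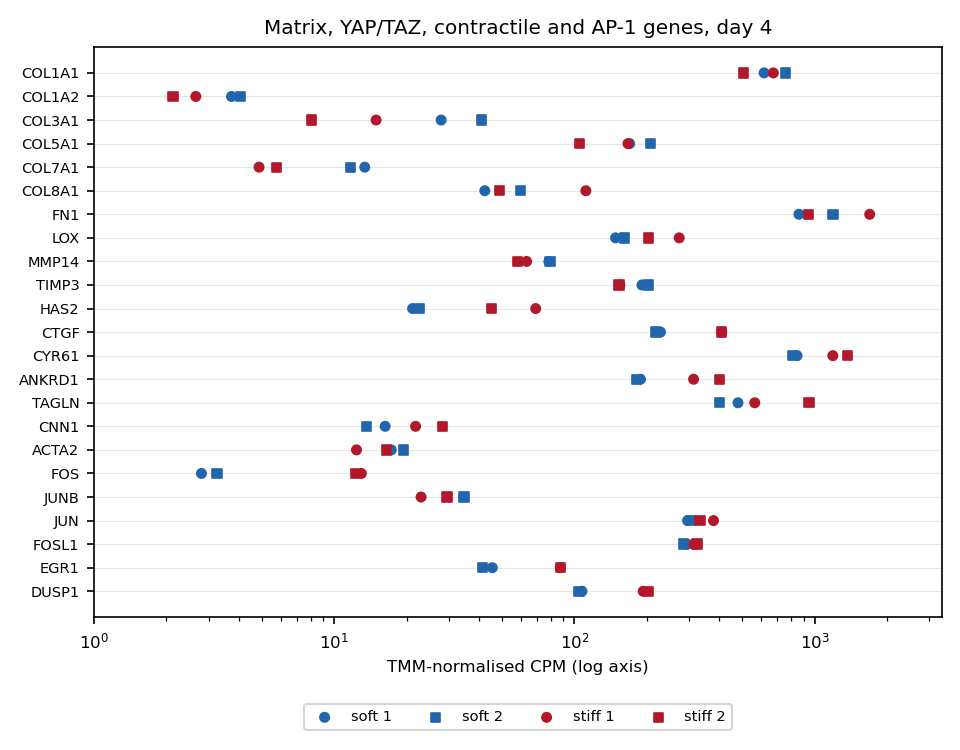
TMM-normalised CPM in each library (log axis) of 23 matrix, YAP/TAZ, contractile, AP-1 and immediate-early genes at day 4, with soft libraries in blue, stiff in red, library 1 as circles and library 2 as squares. COL3A1 and COL7A1 are lower and CTGF, EGR1 and DUSP1 higher in both stiff libraries, whereas stiff 1 and stiff 2 fall on different sides of a soft library for FN1 and COL8A1.

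Across 93 genes of the collagen, basement membrane, glycoprotein, proteoglycan, crosslinking and plasminogen lists none passed the adjusted test (edgeR), and 22 were lower and 5 higher unadjusted (23.7% and 5.38%, against 4.32% and 2.61% of all genes). Both stiff libraries lay below both soft libraries for 40 (43.0%, against 14.0%) and above for 10 (10.8%, against 11.7%). With DESeq2, 8 of the 93 were called lower and 2 higher. Their median of -0.27 was -0.40 without stiff 1 and -0.10 without stiff 2. Members were called in both directions in those 2 fits, as were many other genes. Fibrillar collagens had 3 of 8 members lower and none higher unadjusted (against 4.32% and 2.61% of all genes). Their median was -0.45, with -0.16 in stiff 1 and -0.84 in stiff 2. COL1A1, a chain of type I collagen, overlapped between groups, with 616 and 756 CPM on soft and 673 and 504 CPM on stiff (adjusted p = 0.856). COL1A2 (3.73 and 4.06 against 2.65 and 2.13 CPM), COL3A1 (27.9 and 40.9 against 14.9 and 8.06 CPM) and COL5A1 (169.70 and 207 against 167 and 105 CPM) were lower in both stiff libraries, with adjusted p-values of 0.461, 0.25 and 0.759. Members of this list had a median length of 6050 bases, which is long, and the stiff 2 values were the lower ones in all 3. With offsets for gene length the list's median was -0.36.

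Among the other collagens COL7A1, the anchoring fibril chain, had 13.4 and 11.7 CPM on soft and 4.86 and 5.76 CPM on stiff (-1.24 ± 0.22, adjusted p = 0.105), and COL6A3 141 and 212 CPM against 86.1 and 40.2 CPM (adjusted p = 0.224). COL8A1 went apart within the stiff pair, with 42.3 and 59.7 CPM on soft, 112 CPM in stiff 1 and 48.8 CPM in stiff 2 (adjusted p = 0.826). FN1, fibronectin, did the same, with 860.23 and 1192 CPM on soft, 1694 CPM in stiff 1 and 945 CPM in stiff 2 (adjusted p = 0.856), and VCAN, versican, had 9.15 and 11.8 CPM against 15.7 and 9.1 CPM (adjusted p = 0.89). For these 3 genes the sign of the difference is set by which stiff library is read. Among laminins and nidogens LAMA4 had 11.9 and 12.9 CPM against 6.68 and 7.03 CPM (adjusted p = 0.158).

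Some matrix genes lay higher on stiff. HAS2, which makes hyaluronan, had 21.2 and 22.6 CPM on soft and 68.9 and 45.3 CPM on stiff (1.38 ± 0.22, adjusted p = 0.0678), whereas TNFAIP6, a hyaluronan-binding protein induced by TNF, had 2.43 and 2.3 CPM against 0.344 and 0.461 CPM (-2.55 ± 0.38, adjusted p = 0.0634). LOX, the collagen crosslinking oxidase, had 148 and 162 CPM against 273 and 204 CPM (adjusted p = 0.36), and P4HA1, a collagen prolyl hydroxylase, 62.7 and 62 CPM against 39.6 and 32.7 CPM (adjusted p = 0.159). In the plasminogen system the activator PLAU had 28.8 and 24.3 CPM against 11.7 and 15.1 CPM (adjusted p = 0.11). Each of these genes kept both stiff libraries on one side of both soft libraries, HAS2 and LOX above and TNFAIP6, P4HA1 and PLAU below. None passed the adjusted test.

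Integrins, the receptors through which cells pull on matrix, included no gene past the adjusted test among 16. Unadjusted, 4 were lower and 2 higher (against 4.32% and 2.61% of all genes). DESeq2 called 2 lower. Members were also called when either stiff library was left out, as were many other genes. The list's median log2 fold change was -0.305, with -0.552 without stiff 1, -0.127 without stiff 2 and -0.087 without soft 2. ITGA2, a collagen receptor subunit, had 34 and 47.8 CPM on soft and 18.1 and 10.3 CPM on stiff (adjusted p = 0.11), ITGAV 76.6 and 91.2 CPM against 55.9 and 32.1 CPM (adjusted p = 0.317) and ITGB2, the beta chain of leukocyte integrins, 3.22 and 2.12 CPM against 4.42 and 7.14 CPM (adjusted p = 0.46). ITGA6 overlapped, at 76 and 94.3 CPM against 99.9 and 59.8 CPM. In the TGF-beta and BMP list the target ID2 had 57.6 and 45.4 CPM against 21.9 and 28.5 CPM (adjusted p = 0.101) and SMAD7 30.9 and 28 CPM against 21.8 and 19.6 CPM (adjusted p = 0.353). Over its 26 genes 7 were lower and 3 higher unadjusted (against 4.32% and 2.61% of all genes). The median of this list was -0.18, with -0.458 without stiff 1 and 0.068 without stiff 2. The cadherin CDH4 had 196 and 211 CPM against 255 and 257 CPM (adjusted p = 0.719) and CDH10 2.1 and 2.03 CPM against 1.03 and 0.749 CPM (adjusted p = 0.682), while CDH2, CTNNB1, ARRDC3, MR1 and ORC5 had adjusted p-values of 0.969, 0.963, 0.809, 0.736 and 0.903. Of 28 tested genes that the study names, 2 rose and 2 fell, and as these were chosen on the same samples the count is not independent evidence.

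In the fit of all libraries, the cell cycle, metabolic and stress lists held no gene past the adjusted test. Members of these lists were called when stiff 1 was left out, as were many other genes. Without stiff 1 the median log2 fold change was -0.076 for mitotic, 0.103 for replication and -0.305 for cholesterol and fatty acid genes. It was 0.002 for glycolysis and hypoxia and 0.324 for the ATF4 list. Without stiff 2 these medians were 0.255, -0.029, -0.08, -0.08 and -0.005. DESeq2 called 1 higher and 1 lower in the glycolysis and hypoxia list and 1 lower in the ATF4 list. Mitotic genes had 0 of 30 past the adjusted test (edgeR), with a list median of 0.14, and DNA replication genes had none of 30 past either threshold. The 1 mitotic gene higher unadjusted (against 2.61% of all genes) was CDC20 (209.78 and 211 CPM on soft and 243 and 298 CPM on stiff). Cholesterol and fatty acid genes had 5 of 28 lower unadjusted (against 4.32% of all genes), among them HMGCS1 at 183 and 180.44 CPM against 142 and 120.31 CPM (adjusted p = 0.38). In the ATF4 and endoplasmic reticulum stress list DDIT4, an mTORC1 inhibitor, had 18.7 and 18.5 CPM on soft and 8.69 and 9.39 CPM on stiff (-1.04 ± 0.15) and just missed the threshold (adjusted p = 0.0519), which it passed in 9 of 17 alternatives. ADM, adrenomedullin, of the hypoxia list had 76.6 and 70.6 CPM against 135 and 180.03 CPM (adjusted p = 0.0917). Of the stellate cell identity genes, PDGFRB had 18.1 and 23.6 CPM against 15.4 and 10.9 CPM (adjusted p = 0.493) and RARRES3, a retinoic acid responder, 14.1 and 6.94 CPM against 2.11 and 3.34 CPM (adjusted p = 0.213).

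Lists of short genes show where the stiff libraries part. Cytosolic ribosomal protein genes (51 tested, median length 786 bases) had a median difference from soft of -0.21 in stiff 1 and 0.87 in stiff 2. Subunits of the respiratory chain (42 tested, median length 940 bases) had -0.21 and 0.65. The fitted medians of 0.39 and 0.28 thus average opposite signs, and no member of either list passed the adjusted or the unadjusted threshold. Without stiff 1 the fitted medians of these 2 lists were 0.865 and 0.649, and without stiff 2 they were -0.213 and -0.211. Chromatin regulators, a list of long genes, went the other way, with 0.15 in stiff 1 and -0.42 in stiff 2. Of all genes whose log2 CPM averaged at least 3, NCOA2 had the largest difference between stiff libraries, with 200 counts in stiff 1 and 3 in stiff 2 beside 81 and 171 on soft, followed in the same direction by KIAA0754 with 259 and 10 counts. MZT2B led in the other direction, with 133 and 517 counts. The OAS, IFIT and chemokine lists, in contrast, had close medians in stiff 1 and stiff 2, at -2.68 and -2.80, -1.40 and -1.42, and -1.88 and -1.80. Other interferon lists parted more, with -0.68 and -0.24 for MHC class I and antigen processing and -0.86 and -1.17 for nucleic acid sensors.

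**Figure D5:**
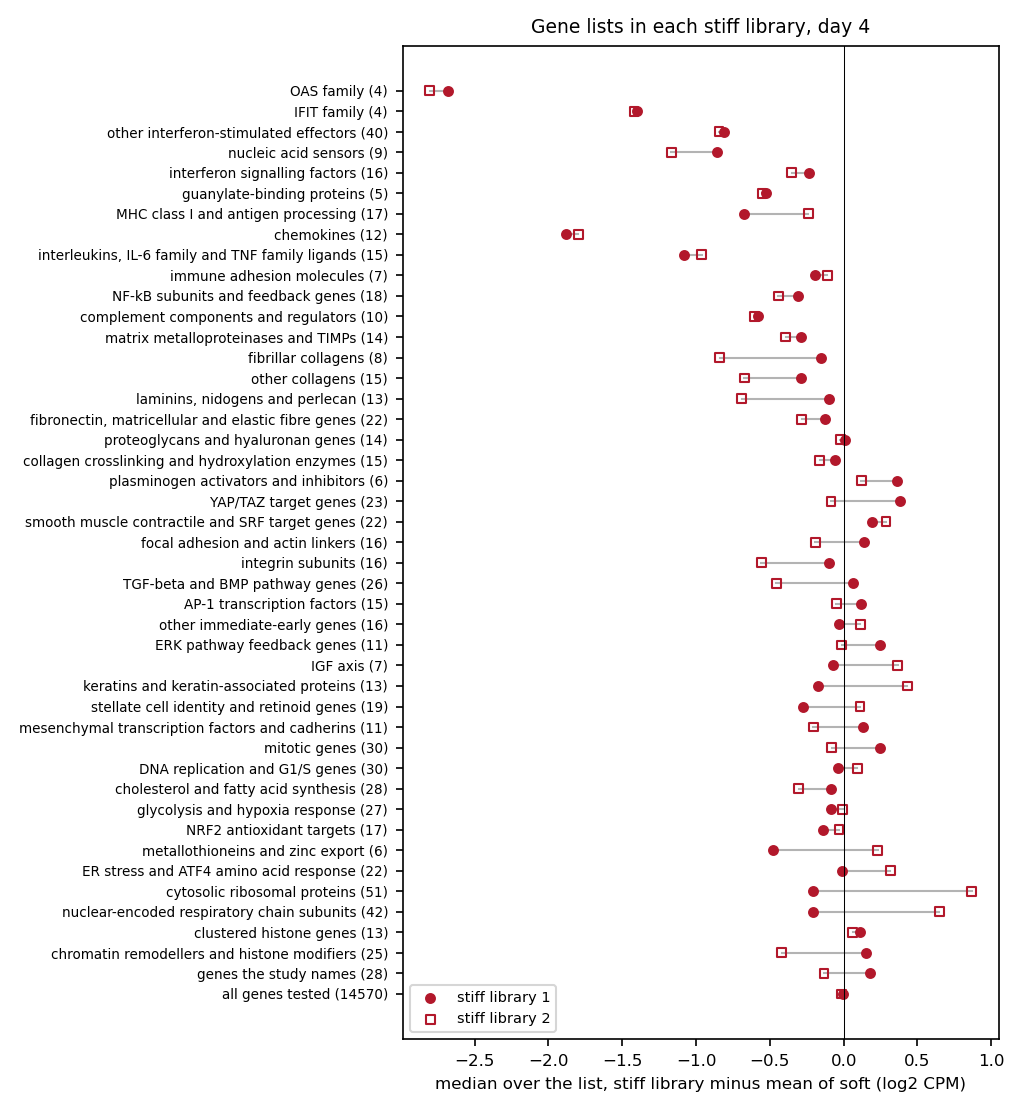
Median over each gene list (number of genes tested in parentheses) of the difference of stiff 1 (filled circles) and stiff 2 (open squares) from the mean of the soft libraries at day 4 (log2 CPM, horizontal axis). The OAS, IFIT and chemokine lists have medians between -2.80 and -1.40 in both libraries, whereas ribosomal proteins lie at -0.21 in stiff 1 and 0.87 in stiff 2.

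The day 2 libraries, which share no sample with day 4, gave the same genes a second reading that was not fully independent. Both days were tested in the same fit with a shared estimate of spread for each gene. Genes chosen for a small p at day 4 may therefore also have smaller p-values at day 2. All 36 genes had the same direction at day 2, as did 56.8% of all genes tested. At an unadjusted p under 0.05, 29 of the 31 fallen genes were lower at day 2 (against 1.78% of all genes) and 3 of the 5 risen genes higher (against 1.04%). All 36 had the larger absolute log2 fold change at day 4, where they had been chosen. Leaving out CXCL10 and IFI44L, whose counts are near 0 on stiff, day 2 log2 fold changes of the fallen genes ran from -2.03 (CCL5) to -0.23 (BHLHE40), and those of the 5 risen genes from 0.02 (IGFBP3) to 0.92 (KRTAP2-3). FOS had a log2 fold change of 0.18 at day 2 and 2.06 at day 4. The change of the stiffness effect between days was tested as an interaction in edgeR: no gene passed an adjusted p under 0.05, and 284 had an unadjusted p under 0.05, 1.95% of those tested and 28 of the 36, which had been chosen at day 4.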

How the data were processed

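RNA of LX-2 cells was sequenced by the study from 8 libraries, 2 per stiffness and day. Per the labels and methods, the authors trimmed reads with Trim Galore, aligned them to hg19 with STAR 2.7.1a and counted them per gene with HTSeq. The annotation and strand setting are not given in the sources used here. Counts per gene were deposited unnormalised, and the authors deposited FPKM values scaled by size factors, whose implied gene lengths were whole (within 0.01) for 100% of 20029 genes. All columns matched a sample by name (0 unmapped). Here counts of all 8 libraries were fitted with edgeR 4.0.16 (R 4.3.3; TMM, filterByExpr, quasi-likelihood test), so the day 2 libraries share in the estimate of spread, and day 4 stiff minus soft was tested with Benjamini-Hochberg adjustment. Log2 CPM used a prior count of 2. Total counts at day 4 were between 19955975 and 21939634, and intervals and floors cover counting error only. Alternatives used DESeq2 1.42.0, limma 3.58.1 on log2(FPKM + 1) or log2(FPKM + 0.1) with FPKM of at least 1 in 2 libraries, other scalings, filters and samples. Scripts were tested on simulated data.

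Genes were named by rule: every gene that rose; the 20 that fell with the smallest p; from each list the members past the test and up to 4 more by unadjusted p; up to 2 of the highest mean level from lists with none; genes the study names; and, above an average log2 CPM of 3, the 10 most different each way between stiff libraries. The other fallen genes and those said to be so were chosen after their values were seen. The comparison and gene lists were chosen with earlier results of these data known. Whether the replicate numbers pair the day 4 libraries cannot be told from the counts. Deviations of same-numbered libraries had a correlation of -0.747 across genes, but both differences follow gene length, in opposite directions. Some genes are not reported here.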

Additional observations from a re-analysis of the deposited data

How the results depend on the processing

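With RLE scaling, 5 genes rose and 31 fell, and all 36 genes passed there, with DESeq2 and without a filter. Of the 36, 30 passed without scaling factors, 32 of 32 with at least 10 counts in every library, 31 of 35 on log2(FPKM + 1), 25 of 35 on log2(FPKM + 0.1), 9 of 36 on log2(FPKM + 1) with no filter, 35 with length offsets, 4 with voom weights, and 0 with the replicate block or on day 4 libraries alone. The 36 kept their direction in every alternative that tested them. DESeq2 called 54 higher and 126 lower, and no filter gave 9 higher. With a replicate block 0 rose and 0 fell, with 168 higher and 352 lower unadjusted. Pairs crossed at day 4, chosen after seeing the data, gave 90 and 210 (837 and 1032 unadjusted). The fit on day 4 libraries alone called 0 and 0 (153 and 256 unadjusted). Limma called 8 higher on log2(FPKM + 1), 10 on log2(FPKM + 0.1), and 15 on log2(FPKM + 1) with no filter (766 higher and 1016 lower unadjusted). Without scaling factors 218 were higher and 954 lower unadjusted. Also chosen after seeing the data, length offsets called 29 and 71 (993 higher unadjusted), and voom weights, which gave the stiff libraries 0.217 and 0.221, called 3 and 1 (113 and 188 unadjusted). Leaving out each day 4 library in turn gave between 0 (without soft 1 or soft 2) and 2490 (without stiff 1) higher, 0 and 2196 lower, and unadjusted 230 to 3210 higher and 374 to 3070 lower. The lone library left in a group was then assumed to vary like the other groups. Of the 36, 36 passed without either stiff library and 0 without either soft library.

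Reversals among the named genes were limited to genes that missed the adjusted test in the main fit. That is no statement on how they tested in the alternatives. They are given here as log2 fold changes. FOSL2 turned to -0.0279 with the replicate block, -0.0217 crossed, -0.0183 on log2(FPKM + 1) with and without filter, -0.0255 on log2(FPKM + 0.1) and -0.0311 with voom weights. Length offsets turned CDH2 to 0.0491 and CTNNB1 to 0.0315, and no scaling factors turned ORC5 to -0.0197. Without 1 library, lowest without stiff 1 and highest without stiff 2, CDH2 ranged from -0.1375 to 0.0730, COL8A1 from -0.0539 to 1.14, CTNNB1 from -0.11 to 0.0438, FN1 from -0.108 to 0.733, FOSL2 from -0.794 to 0.678, ITGA6 from -0.499 to 0.239 and VCAN from -0.194 to 0.592. The cause of these moves was not tested. At these depths, genes under 1 CPM rest on few counts.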
